A study of Saccharomyces cerevisiae with 6 samples.

Results

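The response of hap1 deletion yeast to hypoxia was measured on 3 of the 6 arrays of the series, those titled as hap1 deletion replicates 1 to 3. Each was a 2-colour array that set poly(A) RNA of hypoxic cells against poly(A) RNA of aerobic cells of the same deletion strain of budding yeast, Saccharomyces cerevisiae. The other 3 arrays made the same comparison, hypoxic against aerobic, in wild-type cells. Per the series description, replicates were separate cultures from different days. Dyes were swapped on replicate 2 of each strain, where the hypoxic RNA was labelled with Cy3, and Cy5 marked it on the other replicates. The sources used here do not give the strain background, its mating type, the deletion marker, the oxygen level, the medium or the hours of hypoxia, nor whether the deletion strain was 1 clone.

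Hap1 is a transcription factor that binds heme, and heme is made only when oxygen is at hand. With heme bound, Hap1 activates genes of respiration, sterol synthesis and defence against oxidative stress. Ergosterol, the sterol of yeast membranes, is made by a pathway with several steps that consume molecular oxygen, and yeast without oxygen also exchanges part of its cell wall mannoproteins for the DAN, TIR and PAU families. The arrays of the deletion strain show which parts of the hypoxic response are seen when Hap1 is missing from both cultures.

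Values are log2 ratios of hypoxic over aerobic RNA, so that 1 is a 2-fold rise and -1 a 2-fold fall. The ratios describe whole cultures, and fewer cells with a transcript cannot be told apart from less of it per cell. A gene is said to have risen or fallen where the mean of its deletion arrays differed from 0 in limma's moderated test at an adjusted p under 0.05. The fit took its spread from all 6 arrays, so scatter between wild-type arrays, wide or narrow, also entered the test of the deletion strain.

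The 3 deletion arrays were not equally alike. Across genes, replicates 2 and 3 correlated at r = 0.575, replicates 1 and 2 at 0.502, and replicates 1 and 3 at 0.329. Replicate 1 also lacked a value for 678 genes, against 110 on replicate 2 and 33 on replicate 3. Its correlation with the wild-type arrays lay between 0.0971 and 0.277, while that of replicate 3 lay between 0.426 and 0.538. Genes share their array, so these values are descriptions and carry no test. The HAP1 spot read 0.47, 0.56 and 0.72 on the deletion arrays and its mean of 0.58 ± 0.12 (SD, n = 3) did not pass, with 0.82 in wild type. A ratio of 2 cultures of 1 strain does not show whether HAP1 RNA was absent, so the spot does not check the deletion.

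Of 6208 genes tested, 155 rose (2.5%) and 113 fell (1.82%) in hypoxic against aerobic cells of the deletion strain. Higher genes made up 57.8% of these calls, 64.1% after centring each array on its median and 68.4% after centring and scaling. The rises were larger than the falls. The median rise was 1.70 with 58 genes at least 4-fold and 32 at least 8-fold, and the median fall was -1.20 with 3 genes at least 4-fold and 0 at least 8-fold. Among the 5527 tested genes with all 3 values, 128 were at least 2-fold higher on every deletion array and 45 at least 2-fold lower on every deletion array.

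The number of calls rested on single arrays. Without hap1 deletion replicates 1, 2 and 3 in turn, 76, 28 and 43 genes rose and 52, 2 and 6 fell. Without wild-type replicates 1, 2 and 3 in turn, 148, 96 and 102 rose and 89, 40 and 39 fell. Whichever of the 6 arrays was left out, 25 rises (0.403% of genes tested) and 2 falls (0.0322%) stayed past the threshold. Of these 25 rises, 16 were wall genes of the DAN and PAU families. The others were URA3, HES1, FHN1, ERG28, ERG26, TPH3, APE1, RPB4 and LEU1, and the 2 falls were IMD2 and IMD3, with values given below.

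**Figure D1:**
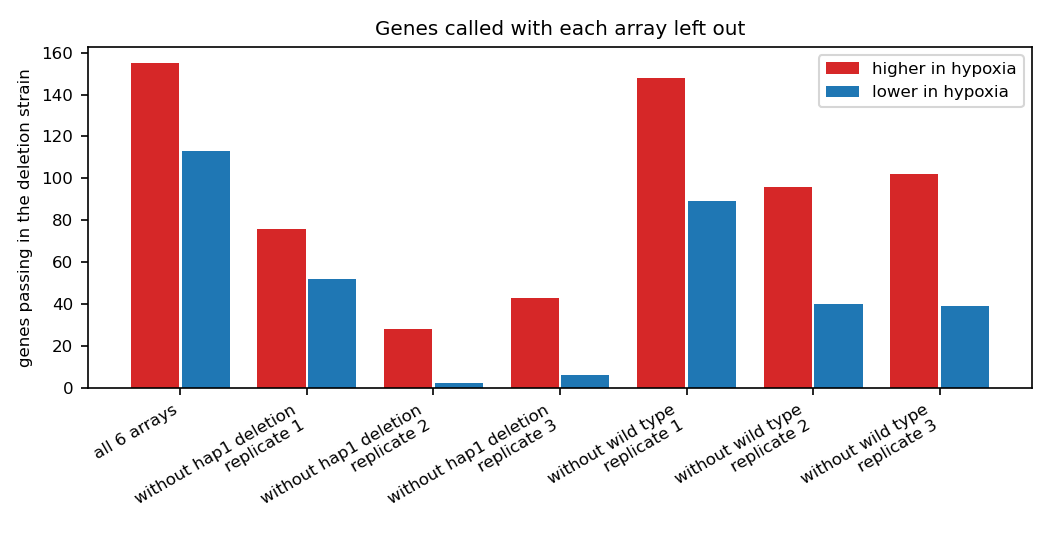
Number of genes that passed limma's test in the hap1 deletion strain (vertical axis), higher and lower in hypoxia, with all 6 arrays and with each array left out in turn. The bars are lowest without hap1 deletion replicate 2, at 28 higher and 2 lower, and closest to the full count without wild-type replicate 1, at 148 higher and 89 lower.

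The largest single values were rises. PAU6, a seripauperin, read 10.24, 7.05 and 5.25 on the deletion arrays, and its mean of 7.51 ± 2.53 is a 183-fold rise (limma adjusted p = 0.00775). All 3 values are high, replicate 1 most of all, and the call was lost without replicate 2. NCE103, the carbonic anhydrase, read 7.11, 5.38 and 3.92, again highest on replicate 1, and was not called without replicate 1 or 2. PAU4 read 5.22, 5.27 and 5.29, a mean of 5.26 ± 0.04 with hardly any spread between arrays. URA3, orotidine-5'-phosphate decarboxylase of uracil synthesis, read 5.82, 4.69 and 4.17, a mean rise of 4.89 ± 0.84 (limma adjusted p = 0.00163). Its mean in wild type was 1.53 ± 0.77 and did not pass. URA3 is also a common marker in yeast genetics, and the sources used here do not say whether these strains carry it as one.

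**Figure D2:**
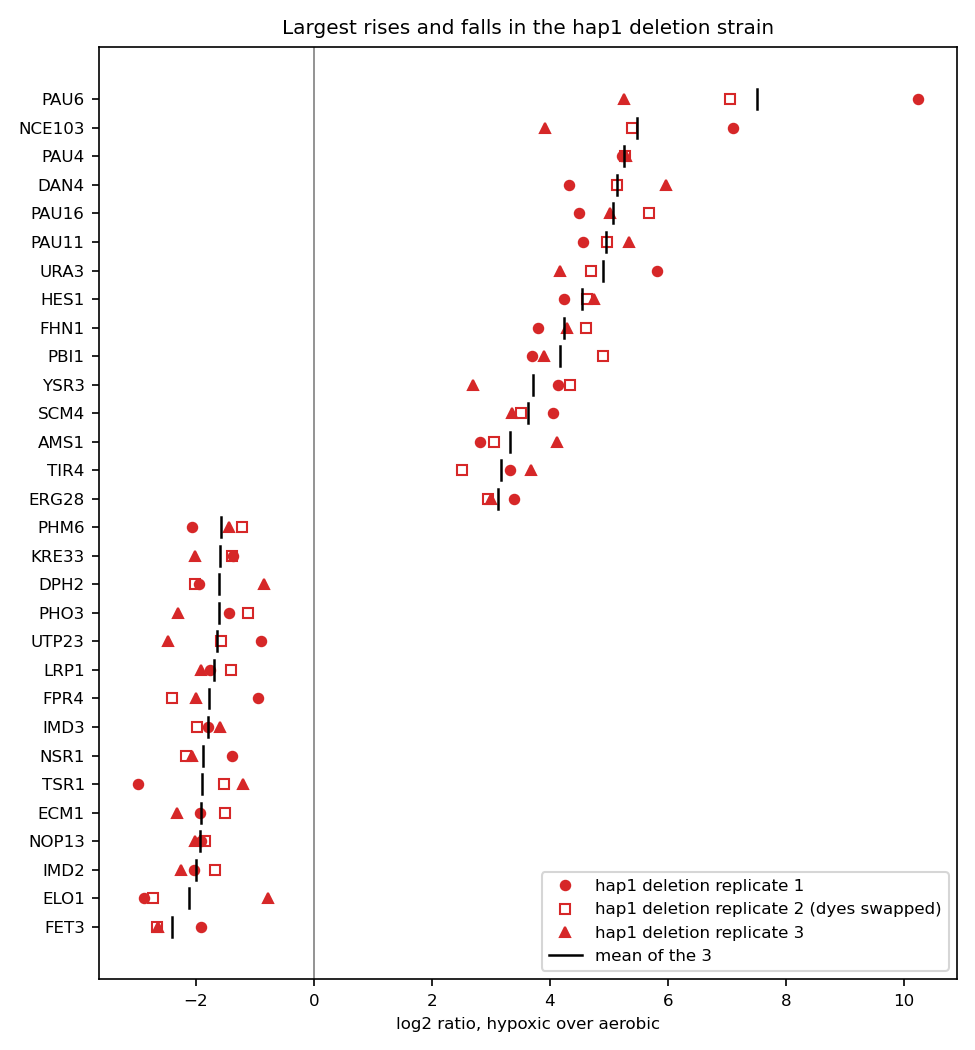
Log2 ratio of hypoxic over aerobic RNA (horizontal axis) on each hap1 deletion array for the 15 largest rises and 15 largest falls called with all 3 values, with at most 4 PAU genes. The rises run from a mean of 3.11 (ERG28) to 7.51 (PAU6), the falls only from -1.57 (PHM6) to -2.40 (FET3), and ELO1 and TSR1 have 1 array far from the other two.

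The cell wall families made up the top of the response. Seripauperins are small wall proteins of a large subtelomeric family, and 21 of the 23 tested rose, none fell, and 2 did not pass, PAU7 and PAU23. Over all genes tested 2.5% rose. The 23 means ran from 1.45 to 7.51 with a median of 4.57, and the family median was 4.20, 4.47 and 4.91 on replicates 1 to 3. The family was therefore high on every array, also on the one with swapped dyes. Leaving out deletion replicates 1, 2 and 3 in turn left 18, 15 and 18 rises. Single members differed between arrays. PAU14 read 3.75, 4.47 and 1.75, lowest on replicate 3, and PAU15 read 2.03, 1.90 and 4.52, highest on it. PAU7 read 2.59, 2.87 and 3.20 and missed the threshold in the fit of all arrays (limma adjusted p = 0.0759), but passed in a fit of the 3 deletion arrays alone (limma adjusted p = 0.0105). Its wild-type arrays had an SD of 2.35. The members are nearly identical in sequence, spots can share signal, and values of single members are uncertain.

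The DAN and TIR mannoproteins are wall proteins of anaerobic growth that are covalently bound to the wall. Of 8 tested, 5 rose (62.5%, against 2.5% of all genes) and none fell. PAU23, also known as DAN2, and PAU24, also known as DAN3, belong to both families. DAN4 read 4.32, 5.14 and 5.96, a mean of 5.14 ± 0.82 (limma adjusted p = 0.00142), and passed whichever array was left out. TIR4 read 3.32, 2.52 and 3.67, TIR3 read 2.78, 2.31 and 3.88, and TIR2 read 2.72, 2.63 and 3.34. Each of these 3 was high on all arrays and highest on replicate 3. TIR1 read 1.38, 1.19 and 2.04 and did not pass (limma adjusted p = 0.0653). DAN1, the best known member, read 2.01, -0.52 and -3.13, so that its arrays disagreed in sign. Rises in the family numbered 3, 3 and 2 without deletion replicates 1, 2 and 3. Of 28 other wall proteins tested none rose, and since only 2.5% of all genes rose, nothing is read from that. SCW11, a glucanase of daughter cells, fell by 0.82 (1 of 28, against 1.82% of all genes), a call lost without any 1 of the 6 arrays.

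Ergosterol genes were the other large group of rises. Mevalonate and early sterol genes lead from acetyl-CoA to lanosterol, and 7 of 12 tested rose while none fell. Late genes lead from lanosterol to ergosterol, and 8 of 12 rose while none fell. Over all genes tested 2.5% rose and 1.82% fell. The early list had medians of 1.19, 1.28 and 1.17 on replicates 1 to 3, and the late list had 1.97, 1.99 and 2.01. Both lists were thus high by nearly the same amount on every array. The median over all genes tested lay between -0.07 and -0.06 on the same arrays. In the early list 3, 0 and 0 rises were left without deletion replicates 1, 2 and 3, and 8, 4 and 4 without wild-type replicates 1, 2 and 3. In the late list the counts were 3, 2 and 2 without the deletion replicates in turn, and 9, 6 and 6 without the wild-type replicates.

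In the order of the early pathway, ERG10, the acetyl-CoA thiolase that opens it, read 1.39, 1.19 and 0.78, a mean rise of 1.12 ± 0.31 (limma adjusted p = 0.0275). ERG13, HMG-CoA synthase, read 1.14, 1.37 and 1.11, a mean rise of 1.21 ± 0.14 (limma adjusted p = 0.0143). At the next step the 2 HMG-CoA reductases did not pass. HMG1 read 1.24, 0.45 and 0.47, and HMG2, the reductase associated with low oxygen, read -0.12, -0.06 and 0.73. Among the kinases, ERG12 had a mean of 0.55 ± 0.13 and did not pass, whereas ERG8 read 1.97, 1.50 and 1.50 and rose by 1.65 ± 0.27. MVD1, the decarboxylase, had 2 values of 1.45 and 1.48 and rose. IDI1, the isomerase, read 0.17, -0.85 and -0.48, the lowest mean of the pathway at -0.39 ± 0.52. ERG20, farnesyl diphosphate synthase, read 1.02, 1.40 and 1.57 and rose by 1.33 ± 0.28. ERG9, squalene synthase, read 1.64, 1.93 and 2.06 and rose by 1.87 ± 0.22. ERG1, squalene epoxidase and the first step that consumes oxygen, read 2.29, 2.09 and 1.38 and rose by 1.92 ± 0.47 (limma adjusted p = 0.038). ERG7, lanosterol synthase, read 1.19, 1.02 and 1.23 and narrowly missed the threshold (limma adjusted p = 0.0592).

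The late steps gave larger values. ERG28, the scaffold of the C-4 demethylation complex, read 3.39, 2.95 and 3.0, a rise of 3.11 ± 0.24. ERG26, the dehydrogenase of that complex, read 2.54, 2.70 and 2.85, a rise of 2.70 ± 0.15 (limma adjusted p = 0.00142). Both passed with any array left out. ERG27, the ketoreductase of the complex, read 1.62, 1.74 and 1.44 and rose, while ERG25, its oxygen-consuming oxidase, read 0.80, 0.12 and 0.66 and did not pass (limma adjusted p = 0.162). Members of 1 enzyme complex thus had means between 0.52 and 3.11. ERG6, the methyltransferase, read 1.83, 2.02 and 1.70, ERG2, the isomerase, read 2.12, 2.09 and 2.05, and ERG4, the last reductase, read 0.69, 1.38 and 1.85. All 3 rose, ERG2 with an SD of 0.03. CYB5 and NCP1, which carry electrons to oxygen-consuming enzymes of sterol synthesis, rose by 2.06 ± 0.24 and 0.86 ± 0.20.

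ERG5, ERG3 and ERG11, late enzymes that also consume oxygen, were high on every deletion array without passing the fit of all 6 arrays. ERG5, the C-22 desaturase, read 3.20, 3.04 and 2.33 (limma adjusted p = 0.0727). ERG3, the C-5 desaturase, read 2.18, 2.26 and 1.97 (limma adjusted p = 0.083). ERG11, lanosterol demethylase, read 1.57, 1.96 and 2.07 (limma adjusted p = 0.0729). Their wild-type arrays had SDs of 2.24, 1.81 and 1.42. All 3 genes passed in the 6-array design once wild-type replicate 1 was left out. In the fit of the 3 deletion arrays alone they also passed, with adjusted p of 0.0189, 0.0195 and 0.0303. That fit called 73 rises (1.18%) and 11 falls (0.177%) over all genes. Of the 155 rises and 113 falls in the fit of 6 arrays, only 62 and 10 were also called in it. It added 11 rises and 1 fall that the fit of 6 arrays did not call. Of the 12 late genes it called 9, and of the 12 early ones 3.

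**Figure D3:**
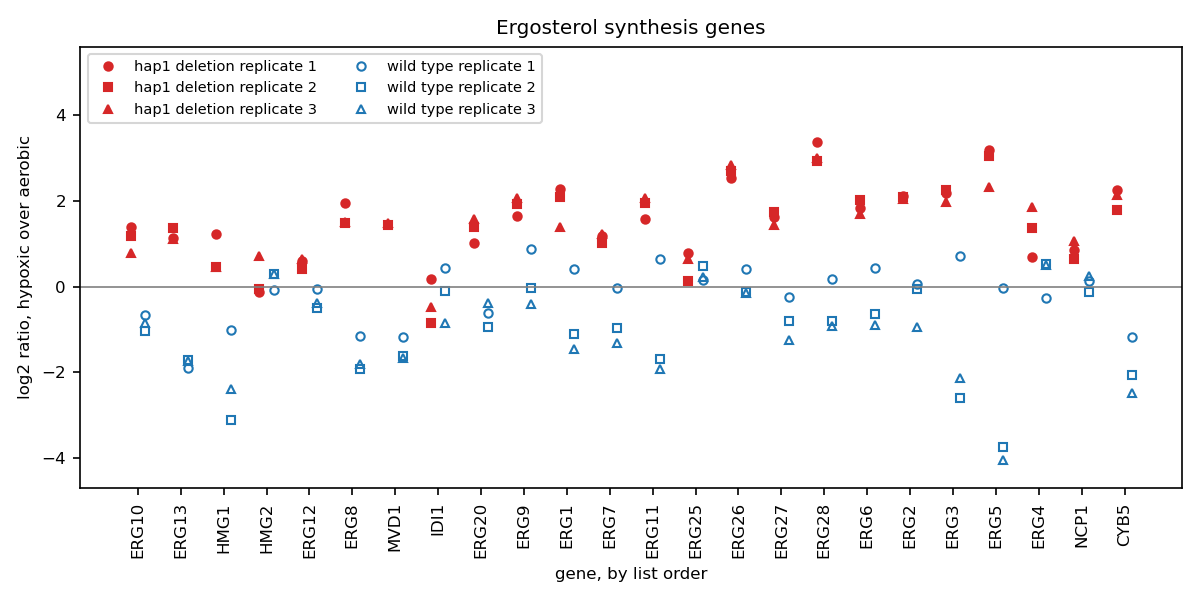
Log2 ratio of hypoxic over aerobic RNA (vertical axis) for the 24 ergosterol genes in pathway order, with CYB5 and NCP1 last, on the 3 hap1 deletion arrays (filled) and the 3 wild-type arrays (open). The deletion arrays lie above 0 for every gene except HMG2 and IDI1, and ERG3, ERG5 and ERG11 spread widely between wild-type arrays.

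Outside the synthesis pathway calls were few. Of 11 genes of sterol uptake and esterification none rose or fell (median 0.11), where 2.5% of all genes rose and 1.82% fell. PDR11, a sterol importer, read 2.74, 0.91 and 1.53, and AUS1, its partner, read -2.07, 1.03 and 0.39. PDR11 was above 0 on each array and AUS1 changed sign. ARE1 and ARE2, the sterol acyltransferases that make storage esters, had means of 1.02 ± 0.54 and 0.84 ± 0.57. Of 10 sterol regulators and sterol-binding genes only HES1 rose (10%, against 2.5% of all genes). HES1, an oxysterol-binding protein of the OSH family, read 4.24, 4.62 and 4.75, a mean of 4.54 ± 0.27 that corresponds to a 23.2-fold rise (limma adjusted p = 0.00147). Among its relatives OSH6 and OSH7, looked up after the values were seen, had means of 0.52 and 0.14. The rest of the family is not given here, so a rise particular to HES1 is not shown. ERG29, a gene of sterol synthesis outside the lists that was also looked up afterwards, read 2.51, 2.01 and 1.41 and rose (limma adjusted p = 0.0392), a call kept in 1 of the 6 fits with an array left out. The sterol activators UPC2 (-0.28) and ECM22 (-0.24, n = 2) and the repressor MOT3 (-0.16) did not pass at the level of their own RNA.

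A list of carbonic anhydrase and membrane proteins, written by hand with earlier results of these data known, held some of the largest rises. Of its 10 genes 3 rose (30%, against 2.5% of all genes) and none fell: NCE103, FHN1 and SCM4. Given how the list was made, nothing is read from this share about a group. FHN1, a plasma membrane protein, read 3.80, 4.61 and 4.29, a rise of 4.23 ± 0.41 (limma adjusted p = 0.000969). SCM4, a protein of the mitochondrial outer membrane, read 4.05, 3.50 and 3.36, a rise of 3.64 ± 0.37 (limma adjusted p = 0.0131). FHN1 passed whichever array was left out, while the call of SCM4 was lost without any of the deletion replicates. NCE102, a relative of FHN1 in the eisosomes of the plasma membrane, had a mean of -0.84 and did not pass. Rises in the list numbered 1, 1 and 2 without deletion replicates 1, 2 and 3.

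Several rises belonged to vacuolar and other functions outside the lists. AMS1, the vacuolar alpha-mannosidase, read 2.82, 3.05 and 4.12, a rise of 3.33 ± 0.69 (limma adjusted p = 0.00661) that was lost without replicate 2. APE1, the vacuolar aminopeptidase that reaches the vacuole by the same route, read 3.19, 2.41 and 3.08 and passed with any array left out. YSR3, a phosphatase of sphingoid base phosphates, read 4.13, 4.34 and 2.69. PBI1 read 3.70, 4.90 and 3.89. Both were high on all 3 arrays. Without deletion replicate 2 neither was called, and YSR3 was not called without replicate 1 or 3 either. RPB4, a subunit of RNA polymerase II, read 2.31, 2.32 and 2.39, a rise of 2.34 ± 0.05. TPH3 read 2.83, 3.12 and 2.76 and rose by 2.91 ± 0.19. SET4, a chromatin protein with a SET domain, read 1.21, 2.26 and 1.77, a rise of 1.75 ± 0.52 (limma adjusted p = 0.0236) that was kept in 4 of the 6 fits with an array left out. RPB4, TPH3, SET4 and APE1 were chosen after their values were seen. In all, 89 of the 155 rises and 52 of the 113 falls belonged to no list.

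Some metabolic lists held rises, to be read against the 2.5% of all genes that rose. In the retrograde response, by which the nucleus answers mitochondrial dysfunction, 2 of 12 genes rose (16.7%). The median of these 12 was 0.07, and 5 had a mean below 0. CIT2, the peroxisomal citrate synthase, read 1.78, 1.70 and 2.42, a rise of 1.97 ± 0.40 (limma adjusted p = 0.0327), and DLD3, a cytosolic D-lactate dehydrogenase, read 1.70, 1.45 and 1.16. Neither was called without any of the deletion replicates. CIT2 was the only riser of 18 genes of the tricarboxylic acid cycle (5.56%). In amino acid synthesis 5 of 60 genes (8.33%) rose: LEU1, HIS4, GDH1, LYS1 and BAT2. LEU1, isopropylmalate isomerase, an iron-sulfur enzyme of leucine synthesis, read 1.89, 1.67 and 1.85, a rise of 1.80 ± 0.12 (limma adjusted p = 0.00386), and the other 4 had means between 1.03 and 1.57. Their number was 2, 1 and 2 without deletion replicates 1, 2 and 3 and 4, 2 and 2 without those of wild type. The median of the amino acid list was -0.03.

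In NAD synthesis BNA2, the tryptophan dioxygenase that uses oxygen in the first step of the kynurenine route, was the 1 riser of 15 (6.67%, against 2.5% of all genes). It read 3.65 and 3.94 on replicates 2 and 3 and had no value on replicate 1, a mean of 3.80 ± 0.20 (SD, n = 2) (limma adjusted p = 0.00606). It was not called when either of its arrays was left out. Of 22 genes of thiamine and other B vitamins 3 rose (13.6%), THI11 (2.08, n = 2), SNZ1 of pyridoxine synthesis (1.76) and THI21 (1.45), and PHO3 fell. THI11 has near-identical copies, of which THI5 had 0.44, THI12 0.25 and THI13 1.82 without passing. In glycolysis and fermentation GPM2, a homologue of phosphoglycerate mutase, read 1.34, 2.75 and 2.87 and was the 1 riser of 28 (3.57%). PDR15, a multidrug transporter of the plasma membrane, read 1.50, 2.04 and 2.33 and was the 1 riser of 17 pumps (5.88%). Without deletion replicate 2 the calls of these metabolic and transport genes were lost, except that LEU1 kept its call.

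The falls were shallower and included genes of ribosome synthesis. Of 135 ribosome biogenesis genes 26 fell (background 1.82%), none rose, and 129 had a mean below 0, as did 3410 of all 6208 genes tested. On replicates 1 to 3 the list median was -0.40, -0.83 and -1.31, so that every array was below 0, replicate 3 the most and replicate 1 the least. NOP13, a nucleolar protein, read -1.91, -1.85 and -2.02, NSR1, the yeast nucleolin, read -1.39, -2.16 and -2.06, and ECM1, which helps export the large subunit, read -1.93, -1.50 and -2.32. These 3 were low on all arrays. TSR1, of small subunit maturation, read -2.97, -1.52 and -1.21, and UTP23 of the small subunit processome read -0.89, -1.57 and -2.47. FPR4, a nuclear proline isomerase, read -0.95, -2.40 and -2.00. LRP1, a cofactor of the nuclear exosome that trims ribosomal RNA and belongs to no list, read -1.76, -1.40 and -1.91 and fell by 1.69, a call lost without deletion replicate 2 or 3. Falls in the list numbered 23, 0 and 0 without deletion replicates 1, 2 and 3, and 16, 13 and 9 without the wild-type replicates. A dye term left 10 falls in this list (0.499% of all genes fell in that fit), and the fit of the deletion arrays alone left 3.

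Translation initiation and elongation factors also held falls. Of 34 such genes 9 fell (26.5%, against 1.82% of all genes) and none rose, with a median of -0.59. TIF3, initiation factor 4B, read -1.36, -1.44 and -0.90, a fall to -1.23 ± 0.29 (limma adjusted p = 0.0174). TIF5, NIP1 and TIF4631, subunits or partners of the initiation machinery, had means of -1.23, -1.16 and -1.16. EFT1, elongation factor 2, read -1.05, -1.04 and -1.20 and fell, while EFT2, which encodes the same protein, had -0.50 ± 0.12 and did not pass. The 2 spots may share signal. DPH2, which modifies elongation factor 2, read -1.95, -2.01 and -0.85 and fell. Falls in this list numbered 1, 0 and 0 without the deletion replicates in turn, and 6, 2 and 3 without the wild-type replicates. The fit of the deletion arrays alone left 0 falls in it. All 18 tRNA synthetases had a mean below 0, as did 3410 of all 6208 genes tested. Their means lay between -1.11 and -0.29, but only DPS1, the aspartyl enzyme, fell (5.56%). Of 133 cytosolic ribosomal proteins 3 fell, RPL17B, RPS1B and RPL35B, a share of 2.26% that is close to the 1.82% of all genes. Their median was -0.46. SSB2, an Hsp70 that binds nascent chains on ribosomes, read -1.44, -1.56 and -1.44 and fell by 1.48. The calls of SSB2, DPS1 and the 3 ribosomal proteins were lost without deletion replicate 2 or 3, all but that of DPS1 also without replicate 1, and all but that of SSB2 also without wild-type replicate 2 or 3. That of DPH2 was lost without deletion replicate 1 or 2 or wild-type replicate 2 or 3.

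Guanine nucleotide synthesis held the 2 falls that stayed past the threshold with any array left out. IMD2 and IMD3 encode IMP dehydrogenase, the enzyme that commits purines to GTP. IMD2 read -2.03, -1.68 and -2.26, a fall to -1.99 ± 0.29 (limma adjusted p = 0.00631). IMD3 read -1.80, -1.98 and -1.59, a fall to -1.79 ± 0.19 (limma adjusted p = 0.00363). IMD4 had -1.19 ± 0.29 and fell, and YAR073W and YAR075W, reading frames of the IMD1 pseudogene that were looked up after the values were seen, had -1.55 and -1.53 and fell. The IMD copies are close in sequence, so their spots may share signal. GUA1, GMP synthase of the next step, read -0.82, -1.07 and -1.08 and did not pass (limma adjusted p = 0.0547). ADE12, on the branch to AMP, fell by 1.10. Of the 21 purine genes 4 fell in all (19%, against 1.82% of all genes), none rose, and 2 fell without each of the deletion replicates in turn and 4, 2 and 3 without the wild-type replicates. Genes of the common purine route, such as ADE1 (-0.22), ADE2 (-0.03) and ADE4 (-0.33), did not pass. In pyrimidine synthesis URA7, CTP synthase, fell by 1.37 and FUR1, of uracil salvage, by 1.27, both called neither without deletion replicate 2 nor without replicate 3, while URA3 rose.

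Metal and phosphate transport held further falls. In the iron regulon 4 of 33 genes fell (12.1%, against 1.82% of all genes), and 27 had a mean below 0, as did 3410 of all 6208 genes tested. FET3, the multicopper oxidase of high-affinity iron uptake, read -1.91, -2.67 and -2.63, and its mean of -2.40 ± 0.43 was the largest fall called (limma adjusted p = 0.0142). FTR1, the permease that works with FET3, read -0.10, -0.51 and -0.96 and did not pass. ENB1 read -1.41, -1.32 and -1.28, ARN2 read -1.11, -1.14 and -1.24, and both siderophore transporters were thus even across arrays. Iron falls numbered 1, 0 and 0 without the deletion replicates in turn and 5, 2 and 2 without the wild-type replicates. In the phosphate regulon 3 of 21 (14.3%) fell: PHO3, a constitutive acid phosphatase, PHO5, the repressible one, and PHM6, with means of -1.62, -0.94 and -1.57. PHO84, the main phosphate transporter, had -0.19 ± 0.71. Phosphate falls numbered 1, 0 and 0 without the deletion replicates, and 3, 1 and 2 without the wild-type replicates. The zinc transporters ZRT1 and ZRC1 fell, 2 of 14 zinc genes (14.3%), and neither was called without any deletion replicate or without wild-type replicate 2 or 3.

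Of 17 fatty acid genes 1 fell (5.88%, against 1.82% of all genes) and none rose. The gene that fell, ELO1, an elongase of medium-chain fatty acids, read -2.87, -2.72 and -0.77, a fall to -2.12 ± 1.17 (limma adjusted p = 0.042) that rested on 2 strong arrays. Its call was lost without any array other than hap1 deletion replicate 3. OLE1, the desaturase that needs oxygen, read 1.12, 1.71 and 1.28 and did not pass in the fit of all arrays (limma adjusted p = 0.149), where its wild-type arrays had an SD of 1.49, nor in the deletion arrays alone (limma adjusted p = 0.0688).

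Some lists without calls differed strongly between the 3 arrays. Since only 2.5% of all genes rose and 1.82% fell, nothing is read from the lack of calls itself. Of 35 general stress genes none rose or fell, and the list median was -0.20, 0.58 and 1.28 on deletion replicates 1, 2 and 3, with 2.09, 0.72 and 0.56 on wild-type replicates 1, 2 and 3. Glycogen and trehalose genes behaved alike, with 0 calls among 21 and medians of -0.69, 0.29 and 0.60 on the deletion arrays. Deletion replicate 1 was thus the array with the lowest stress and glycogen medians and also with the ribosome biogenesis median nearest to 0. HSP12, a membrane protein of stressed cells, read 4.62, 4.44 and 3.0, high on every deletion array, and did not pass (limma adjusted p = 0.0632), with an SD of 2.85 over the wild-type arrays. In the deletion arrays alone it passed (limma adjusted p = 0.0211), as did HSP26 (2.09) and HOR7 (2.76). GPG1 (2.09) and YJL114W (2.73), a reading frame of a Ty element, did the same. Without wild-type replicate 1, HSP12, HSP26, HOR7 and GPG1 also passed, and YJL114W and PAU7 passed without wild-type replicate 2.

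**Figure D4:**
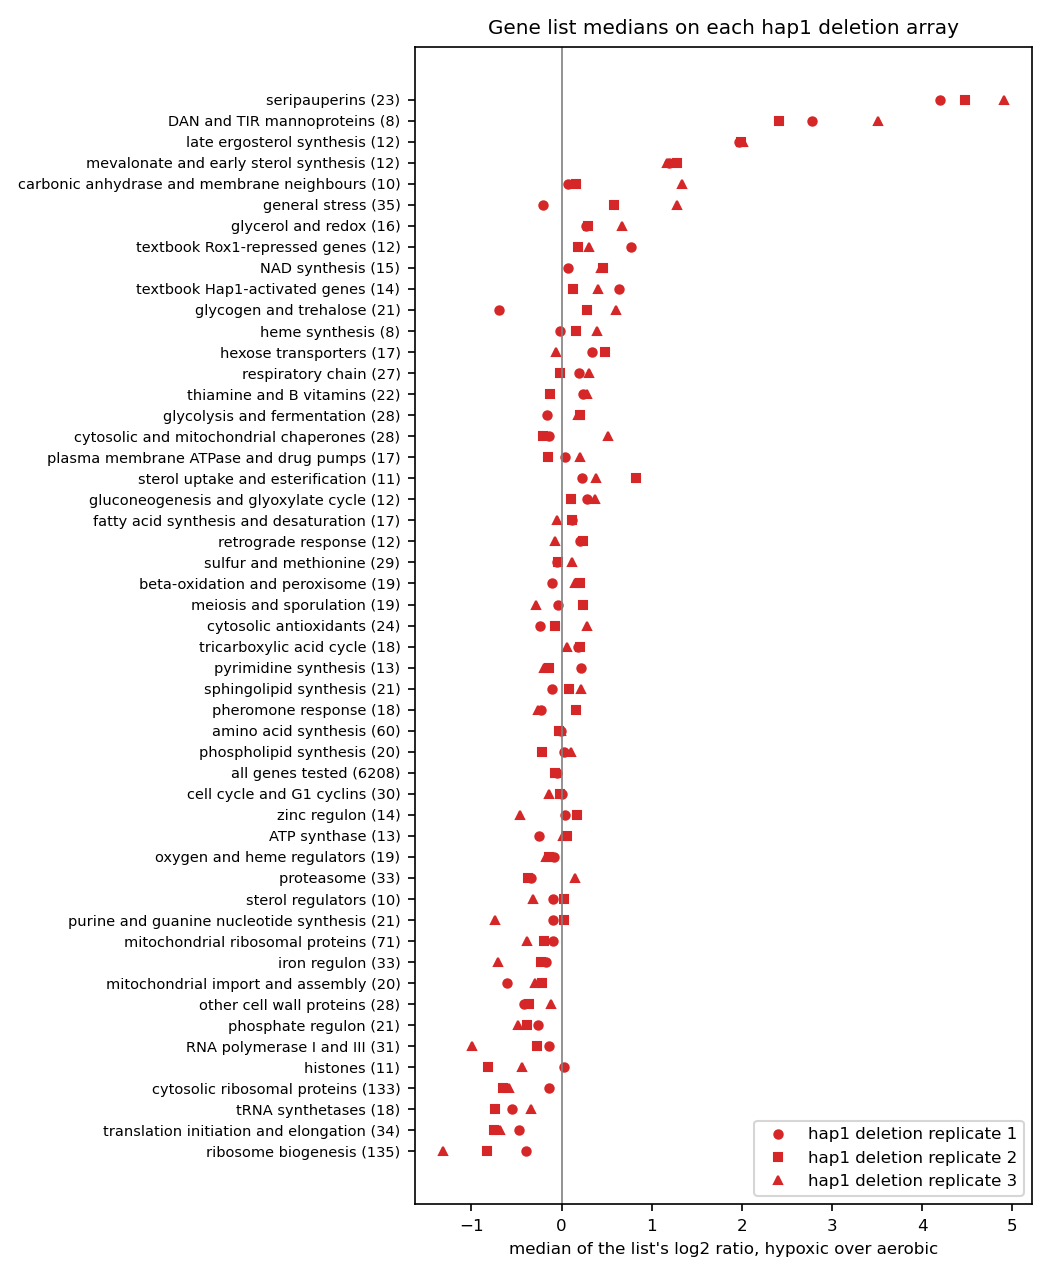
Median log2 ratio of hypoxic over aerobic RNA (horizontal axis) of each gene list of at least 8 tested genes on the 3 hap1 deletion arrays, with the number of tested genes in brackets. The 3 arrays lie close together for both sterol lists and apart for general stress (-0.20, 0.58 and 1.28), glycogen and trehalose, and ribosome biogenesis (-0.40, -0.83 and -1.31).

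Most genes of heme synthesis and respiration did not pass in the deletion strain, and neither did 5940 of all 6208 genes tested. HEM13, the coproporphyrinogen oxidase that consumes oxygen, read 2.12, 1.90 and 1.88, a rise of 1.97 ± 0.13 (limma adjusted p = 0.0198). The call was lost without any of the deletion replicates, and HEM13 was the 1 riser of 8 heme synthesis genes (12.5%, against 2.5% of all genes). HEM14 (-0.11), HEM15 (0.22) and HEM1 (0.30) did not pass. Of 27 respiratory chain genes none rose or fell, with medians of 0.20, -0.01 and 0.31 by array, and the lowest was NDE1, the external NADH dehydrogenase. It read -2.06, -1.85 and -2.32 and missed the threshold in the fit of all arrays (limma adjusted p = 0.101), while its wild-type mean was -4.53 ± 1.93. In the deletion arrays alone NDE1 passed as the 1 added fall (limma adjusted p = 0.0229), and it passed without wild-type replicate 1. All 4 succinate dehydrogenase genes lay above 0, as did 2798 of all 6208 genes tested. Their means ran from SDH4 at 0.31 to SDH2 at 1.01, without passing.

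Pairs of aerobic and hypoxic isoforms gave no call in this strain, and the difference between the isoforms of a pair was not tested. COX5A, the aerobic cytochrome oxidase subunit, read -0.16, -0.23 and 0.03, and COX5B, its hypoxic counterpart, read 0.77, 1.22 and 0.31, above COX5A on each array. CYC1, the main cytochrome c, read 0.64, -0.13 and -0.38, and CYC7, the minor one, read 0.77, -0.01 and 0.29. ANB1, the hypoxic form of translation factor eIF5A, read 0.57, 0.38 and 0.29, and HYP2, its aerobic form, read 0.52, 0.39 and -1.27. None of the 6 passed, and the close sequences of ANB1 and HYP2 may share signal. AAC3, a carrier of ADP and ATP used in hypoxia, read -0.39, -0.69 and -0.70 and did not pass. Among 19 regulators of oxygen and heme genes none passed, where 2.5% of all genes rose and 1.82% fell. ROX1, the repressor of hypoxic genes, had -0.19 ± 0.13 and HAP4, which drives respiratory genes, had -1.07.

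Markers of mating type and meiosis were read because the labels give neither mating type nor ploidy. Of 7 a-specific genes MFA2, which encodes a-factor, read -0.96, -1.02 and -1.61 and fell, a call lost without any 1 of the 6 arrays, and none rose. None of 4 alpha-specific genes and none of 19 meiosis genes passed, where 2.5% of all genes rose and 1.82% fell. Both cultures on an array were of 1 strain, so these ratios do not show which mating type it had.

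The same arrays can be set against wild type by testing the difference of both responses, deletion minus wild type, for each gene. It was higher in 19 genes (0.306%) and lower in 3 (0.0483%). By calls, 53 genes rose in both strains, which is 34.2% of the deletion strain's rises and 44.5% of the 119 in wild type (1.92% of genes). Falls in both numbered 47, or 41.6% of the deletion strain's and 32.6% of the 144 in wild type (2.32%). A gene called in 1 strain only is not thereby shown to differ between strains. The calls of both strains also used the same estimate of spread, so they are not independent. A further 5 genes, CYB5, ERG8, ERG13, MVD1 and PRM10, rose in the deletion strain and fell in wild type, and no gene did the opposite. PRM10, a membrane protein of the pheromone response, had 1.40 (n = 2) in the deletion strain and -1.19 in wild type.

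Sterol genes supplied 9 of the 19 higher differences: CYB5, ERG28, ERG8, ERG13, MVD1, ERG26, ERG2, ERG27 and ERG10. ERG13 read 1.14, 1.37 and 1.11 in the deletion strain and -1.91, -1.73 and -1.75 in wild type, a difference of 3.0 ± 0.23 (SE, limma adjusted p = 0.00733). The strains did not overlap on any of the 9, but these were chosen by the test of their difference, so this adds no support. YHB1, flavohemoglobin, which removes nitric oxide, read 0.27, -0.10 and -0.03 in the deletion strain against -4.64, -5.02 and -5.52 in wild type. CYC1 stood at 0.04 ± 0.53 in the deletion strain and at -4.85 ± 0.07 in wild type. OLE1 had the largest difference, 6.01 ± 0.70, with a mean of 1.37 in the deletion strain and -4.63 in wild type. SCM4 was 3.64 ± 0.37 in the deletion strain and -1.44 ± 1.39 in wild type. FHN1 rose in both strains, by 4.23 in the deletion strain and by 1.27 in wild type, a difference of 2.97 ± 0.32 (SE, limma adjusted p = 0.0265).

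In the other direction PTR2, the peptide transporter, read -0.63, -0.50 and -0.32 in the deletion strain against 1.45, 2.27 and 2.08 in wild type. IDH2, a subunit of mitochondrial isocitrate dehydrogenase, read -0.05, -0.25 and -0.51 in the deletion strain against 1.90, 1.58 and 1.52 in wild type. TIP1, a wall mannoprotein, read -0.59, -0.27 and -0.66 against 1.52, 1.14 and 1.48 in wild type. The groups did not overlap for any of these 3, which were likewise chosen by the test of their difference, so this adds no support. The seripauperin, DAN and TIR genes gave no call in the test of the difference, and neither did the 135 ribosome biogenesis genes. That test called 0.306% of all genes higher and 0.0483% lower, so a lack of calls does not show equal responses. Seripauperins had a median of 4.57 in the deletion strain and 2.72 in wild type. The medians were 2.94 and 2.54 for DAN and TIR genes, and -0.86 and -0.97 for ribosome biogenesis genes. Without wild-type replicate 1 the test called 15 higher and 1 lower, and without any other single array it called 2 higher and 0 lower, so the 22 differences rest on few arrays.

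**Figure D5:**
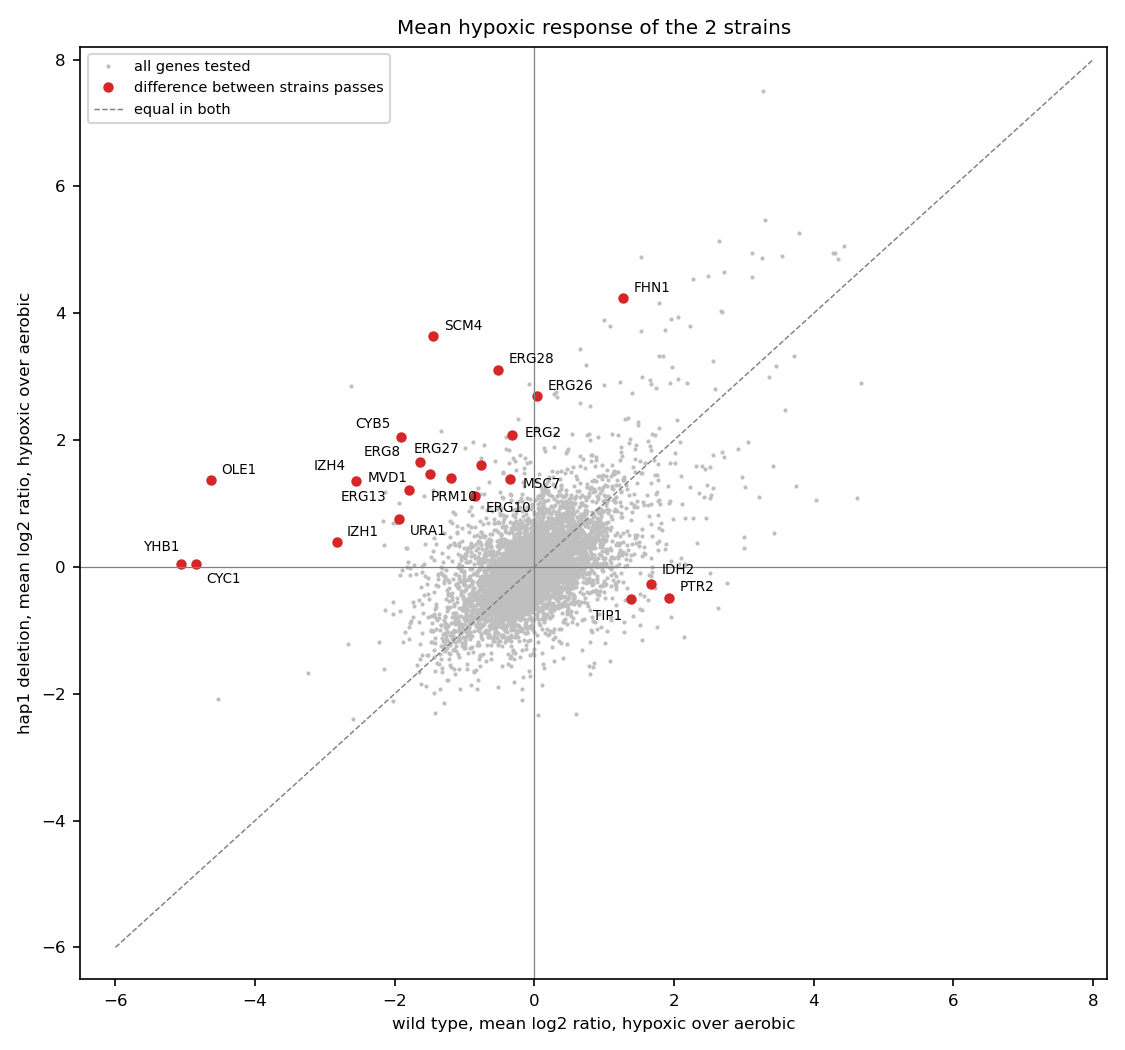
Mean log2 ratio of hypoxic over aerobic RNA in the hap1 deletion strain (vertical axis) against wild type (horizontal axis) for 6208 genes. The 22 genes whose difference passed are marked, with 19 above the line of equal response, from MSC7 at a difference of 1.73 to OLE1 at 6.01, and TIP1, IDH2 and PTR2 below it.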

How the data were processed

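Messenger RNA ratios were measured on 6 2-colour arrays, 3 of hap1 deletion and 3 of wild-type yeast. Per the labels' protocols, RNA was taken by hot phenol, copied from a polyT primer and hybridised, and spots were read with GenePix 5.0. The sources used here do not give background correction, spot filters or normalization. The deposited values of the authors are log10 ratios, aerobic over hypoxic as titled. The base was read from the values: with base 10, 330 of 36476 were ratios of whole numbers (denominators to 30, relative tolerance 7e-08), against 7 with base 2. The design had assumed log2. Values were turned to log2, hypoxic over aerobic, with dye-swapped arrays taken as already turned, since all arrays of a strain correlated above 0.

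The 6282 rows hold 5707 genes of the RefSeq table (assembly R64), and 6208 rows with at least 2 values per strain were tested. Strain means and their difference came from 1 fit of all 6 arrays with limma 3.58.1 in R 4.3.3 (lmFit, eBayes, two-sided, 4 residual degrees of freedom, prior 2.97, prior SD 0.404), with Benjamini-Hochberg adjustment over all genes and a threshold of 0.05. Alternatives were centring, scaling, a dye term, complete genes only, robust eBayes, the replicate number as a block, the 3 deletion arrays alone, and each array left out. In simulated data of 6208 genes, 36% of deletion changes of 1 on the log2 scale and 86% of changes of 2 were called, with 5 false calls. The simulation changed 100 genes by each amount and drew independent normal noise with the spread of the fit. Shifts that many genes share on an array were not simulated, so these numbers need not hold for the real arrays.

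The members and the 55 gene lists (1292 genes, 23 entries without a match, 8 not tested) were chosen with earlier results of these data known. Named genes are the 15 largest rises and falls called with all 3 values (at most 4 PAU genes), up to 5 called members per list and members whose role calls for a value, the 8 largest strain differences in each direction, a fixed set of oxygen, sterol and heme genes, and the 8 largest means that passed in the deletion arrays alone only. The labels do not say whether a replicate number marks a shared day, so the main fit did not pair arrays by number. Deviations from the strain means correlated at -0.0213, 0.0599 and 0.131 for the same number. For different numbers they correlated at -0.154 to 0.111. With 3 arrays a strain these values cannot decide whether arrays were paired. The array's build is not given, so no coordinates or sequences are printed.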

Additional observations from a re-analysis of the deposited data

Results flagged for a closer look

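The hypoxic response differed between the strains in 22 genes in limma's test of the difference, given here as deletion minus wild type on the log2 scale. Most of these calls were lost in other fits: 3 of the 22 were called after scaling the arrays, 7 with a dye term, 0 with a replicate block, and 2 without any 1 array other than wild-type replicate 1. In sterol synthesis the differences were 3.97 for CYB5, 3.63 for ERG28, 3.29 for ERG8, 3.0 for ERG13, 2.96 for MVD1, 2.66 for ERG26, 2.40 for ERG2, 2.37 for ERG27 and 1.97 for ERG10. They were 6.01 for OLE1, the fatty acid desaturase, 5.11 for YHB1, the flavohemoglobin, and 4.89 for CYC1, a cytochrome c. In pyrimidine synthesis the difference was 2.70 for URA1, dihydroorotate dehydrogenase. Membrane proteins gave 5.08 for SCM4, 2.97 for FHN1, 2.59 for PRM10, 3.92 for IZH4 and 3.23 for IZH1, the last pair being membrane proteins of zinc and sterol homeostasis. MSC7, which belongs to no list, gave 1.73. Lower in the deletion strain were TIP1 at -1.88, IDH2 at -1.94 and PTR2 at -2.42. URA1 read 1.06, 0.79 and 0.43 in the deletion strain against -1.50, -2.31 and -2.00 in wild type. IZH4 read 1.38, 2.01 and 0.68 in the deletion strain against -2.27, -3.49 and -1.91 in wild type. The cause of these differences was not tested.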

How the results depend on the processing

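The 90 named genes called in the deletion strain kept their sign under each alternative. They were named because they passed, so a kept sign adds little support. Their calls were often lost: over these genes and alternatives, 522 results no longer passed. The genes whose mean changed sign had not passed: CYC1 (-0.00207) and HYP2 (0.00588) in the deletion arrays alone with a dye term, and, over the arrays left out, CYC1 between -0.258 and 0.254, YHB1 between -0.0612 and 0.122, ECM22 between -0.866 and 0.392, HYP2 between -0.442 and 0.454 and HMG2 between -0.0936 and 0.331. Counts of rises and falls moved more. Against 155 and 113, a dye term gave 90 and 31, the deletion arrays alone 73 and 11, and both together 38 and 0 (432 falls at an unadjusted p under 0.05). Scaling to the same spread gave 71 falls, and genes with all 6 values gave 182. With the replicate number as a block 58 genes rose and 7 fell, and the strain difference had 0 calls in each direction, against 19 and 3 (unadjusted p under 0.05 in 267 and 211). The difference had 3 higher and 0 lower calls after scaling, and 7 and 0 with a dye term. Leaving out 1 array gave 28 to 148 rises and 2 to 89 falls, and for the difference 2 to 15 higher and 0 to 1 lower. Centring and robust eBayes kept these counts within 1.5 times. Over the lists and alternatives, 32 medians moved by more than the spread between replicates and 766 did not. With 3 arrays a strain, changes near 2-fold were mostly not called in simulated data, and spot brightness was not analysed here.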

Other observations

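Further lists held 1 or 2 calls each in the deletion strain. Their shares, from 3.45% to 6.25%, stand against 2.5% of all genes higher and 1.82% lower, and nothing is read from them about the lists. In sulfur metabolism CYS4, cystathionine beta-synthase, read -1.13, -1.45 and -1.64, and it fell as the 1 call of 29 genes. In sphingolipid synthesis LCB4, the sphingoid base kinase, read -1.53, -0.97 and -1.29 and was the 1 fall of 21. Among 19 genes of beta-oxidation and the peroxisome PXA1, a subunit of the fatty acid importer, read 1.47, 1.60 and 1.01 and rose, while CTA1, the peroxisomal catalase, read -0.83, -0.94 and -1.40 and fell. GRX1, a glutaredoxin, rose by 1.16, and it was the 1 riser among 24 antioxidant genes. BDH1, butanediol dehydrogenase, read 0.95, 1.77 and 2.28 and was the 1 riser of 16 genes of glycerol and redox metabolism. CPR6, a cyclophilin that works with Hsp90, rose by 0.96 ± 0.17, the 1 riser of 28 chaperones. Each of these calls was lost without hap1 deletion replicate 2, and likewise without replicate 3.

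Several lists of growth and organelle functions stayed without a call, where 2.5% of all genes rose and 1.82% fell. RNA polymerase I and III (31 genes) had a median of -0.45, with -0.14, -0.27 and -0.99 on deletion replicates 1 to 3. Mitochondrial ribosomal proteins (71 genes) had -0.25, the proteasome (33 genes) -0.19, histones (11 genes) -0.45 and ATP synthase (13 genes) -0.16. Hexose transporters (17 genes) had 0.23. Glycolysis and fermentation, with the 1 call of GPM2, had 0.14. Among spots of overlapping reading frames, YLR101C, a dubious frame that overlaps ERG27, read 2.23, 1.79 and 1.13 and rose, and YGR160W, which overlaps NSR1, read -1.76, -1.97 and -2.68 and fell. The call of YLR101C was kept in 2 and that of YGR160W in 4 of the 6 fits with an array left out. With a deletion array left out, YLR101C kept its call in 0 and YGR160W in 1 of the 3 fits. Both were chosen after their values were seen, and the sources used here do not say whether the array separates the strands.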
